A study of Rattus norvegicus with 48 samples.

Results

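Cd74, RT1-Da and B2m are 3 rat genes of antigen presentation, and their RNA was followed beside and away from silicon electrodes in motor cortex. The genes were chosen by name, through the Ensembl IDs ENSRNOG00000018735 (Cd74), ENSRNOG00000032844 (RT1-Da) and ENSRNOG00000017123 (B2m). All 3 IDs were found in both deposited count tables, among 18997 IDs in all. Single-shank probes were placed 2 mm deep in the motor cortex of wild-type male Sprague-Dawley rats aged 12 to 14 weeks. Tissue within 100 µm of the shank (near) and about 500 µm from it (far) was cut from fixed 20 µm sections by laser capture microdissection, which frees selected areas of a section with a laser. Far tissue was pooled from 4 smaller areas around the implant, per the labels' protocols. The groups were near and far tissue at 24 h (3 rats), 1 week (5 rats) and 6 weeks (4 rats) after implantation, and the 100 µm and 500 µm positions in 3 naive rats, wild-type animals without an implant. Each group held 6 libraries, 48 in all, because 6 implanted rats carried a probe in each hemisphere and all naive rats gave both hemispheres.

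Major histocompatibility complex (MHC) molecules carry peptides to the cell surface, where T cells read them. Class I molecules are found on most nucleated cells and need the small subunit beta-2 microglobulin, the product of B2m. Class II molecules are made mainly by specialised antigen-presenting cells. RT1-Da encodes the alpha chain of a rat class II molecule, and Cd74 encodes the invariant chain that guards the peptide groove of class II molecules until they are loaded. In healthy brain class II is low, and microglia and macrophages are known to raise it after injury.

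Class II genes, Cd74 and B2m are known to share a promoter module in which the factor NF-Y binds an inverted CCAAT sequence, the Y box. The sequences below are 30-base windows of RefSeq promoters (rat build GRCr8), shown because the levels of the 3 genes are compared here. Motifs were searched on both strands in the 250 bases before the RefSeq start, and all 3 genes were in the table. Capitals mark CCAAT or its reverse complement ATTGG, which was found once before each of the 3 genes, 189 bases before the start in Cd74, 49 in RT1-Da and 64 in B2m. The match is inverted (ATTGG) in RT1-Da and B2m, whereas in Cd74 it reads CCAAT and so is not in the Y box orientation.
Cd74: ggccctggccagCCAATgggatcatgcaga
RT1-Da: aacatttttctgATTGGctagaactcaagt
B2m: atctgagttcggATTGGctgctagatcggg
CCAAT on either strand was present in 34.02% of 33469 promoters, so its presence before all 3 genes is a description. B2m alone of the 3 also held TGACG, part of a cyclic AMP response element, 89 bases before the start, and an interferon response element motif (GAAA, any 2 bases, GAAA), 150 bases before it. These 2 matches, in capitals, were as follows.
B2m TGACG: ctaggagactggTGACGgccaccagatctg
B2m interferon response element: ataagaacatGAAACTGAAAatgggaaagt
TGACG was present in 18.2% of promoters and the interferon response element motif in 3.41%. TTCNNNGAA, a STAT motif present in 7.67%, was not found in the 250 bases before any of the 3 genes.

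Libraries totalled 3363892 to 12844185 counts and detected 3062 to 16023 genes. Fewer than 6000 genes were detected in 4 libraries: near tissue of the right hemisphere of rat 29 at 24 h, near tissue of rat 20 and of the right hemisphere of rat 23 at 1 week, and far tissue of the left hemisphere of rat 23 at 1 week. The rat was the replicate, so counts of its libraries were summed per position. Levels are given as counts per 1000000 (CPM), scaled with TMM factors over all 30 rat-by-position samples. They compare a gene between samples and not genes with each other, since counts were not divided by gene length. In these pieces of tissue, fewer cells of a type and less RNA per cell cannot be told apart. The files do not pair IDs with names, so marker genes of cell types and other genes of the pathway were not analysed here.

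B2m, the class I subunit, was counted at every position in all 15 rats and was mostly higher near the implant than far from it. At 24 h its near levels were 219 CPM in rat 25, 62.8 in rat 29 and 61.6 in rat 30. Far levels in the same rats were 62.2, 23.4 and 39.8 CPM. Near exceeded far within each rat, but the highest far value lay just above the lowest near value. At 1 week near levels ran from 37.0 to 118 CPM (median 103) and far levels from 38.3 to 101 (median 61.6). Rat 9 showed the widest gap, at 114 CPM near and 40.6 far. Rats 10 and 20 were almost level, at 103 CPM near and 101 far and at 37.0 near and 38.3 far. Rat 22 had 118 CPM near and 79.7 far, and rat 23 had 76.7 near and 61.6 far. The groups at 1 week thus overlapped. At 6 weeks near levels were 199 CPM in rat 2, 96.1 in rat 11, 95.3 in rat 17 and 76.3 in rat 19. Far levels there were 60.0, 52.7, 38.9 and 51.2 CPM. Every near rat at 6 weeks stood above every far rat, which was so for 1.83% of the 14783 genes examined in this way.

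Over the 12 implanted rats the near-far difference of B2m was 0.88 ± 0.64 (SD, n = 12) on the log2(CPM + 1) scale, with near higher in 11 of 12 rats. By the exact sign-flip permutation test, two-sided as all tests here, p was 0.00146. Adjusted over all 14783 genes tested in the same way, this p was 0.0989. Near was higher than far in at least 11 of 12 rats for 0.805% of genes, and 3.38% of genes were higher near with an unadjusted sign-flip p below 0.05, against 9.84% lower near. The median of the same difference over all genes was -0.22. No gene (0 of 14783, 0%) had an adjusted sign-flip p below 0.05 in either direction, B2m included. With 12 rats the smallest p of this test is 0.000488, so passing the adjustment would need many genes at or near it. Too few genes had p-values that small here, so none passed, and B2m is not called by this test.

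**Figure D1:**
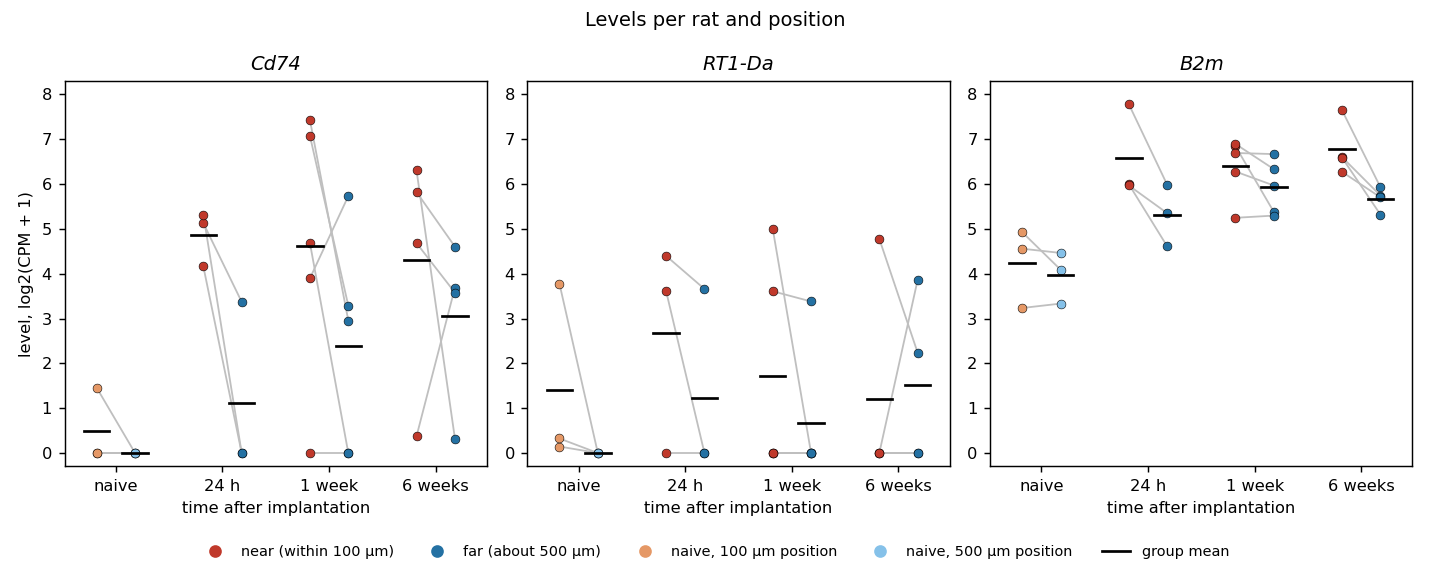
Levels of Cd74, RT1-Da and B2m as log2(CPM + 1) in each rat, by time and position. Points are rats, grey lines join the positions of 1 rat and black bars are group means on the plotted scale. At each position B2m was above the naive levels of that position in every implanted rat, whereas Cd74 and RT1-Da had rats at 0 in several implanted groups.

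The fit across all genes was edgeR's quasi-likelihood test with the rat as a block. A gene was called at a Benjamini-Hochberg adjusted p below 0.05. For B2m the fitted log2 fold change of near over far was 1.28 ± 0.79 at 24 h, 0.47 ± 0.60 at 1 week and 1.10 ± 0.68 at 6 weeks, where each ± is an approximate standard error. None was called (edgeR adjusted p = 1, 0.964 and 1). Averaged over the 3 times the log2 fold change was 0.95 ± 0.40 (edgeR adjusted p = 0.396). In that fit 0.132% of 14399 genes were called at 24 h, 0.396% at 1 week, 0.0764% at 6 weeks and 1.51% for the average. The median log2 fold change of all genes in these contrasts was -0.08, -0.66, -0.05 and -0.39. The DESeq2 Wald test called the average for B2m (log2 fold change 1.13, DESeq2 adjusted p = 0.000284), as it did 8.14% of the 14399 genes.

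Cd74, the invariant chain, was counted in 13 of 18 near libraries, 8 of 18 far libraries and 1 of 12 naive libraries. At 24 h near levels were 34.04 CPM in rat 25, 17.0 in rat 29 and 39.0 in rat 30. Far tissue held 9.36 CPM in rat 25 and 0 counts in rats 29 and 30, so near and far rats did not overlap. Such a separation at 24 h was seen in 4.71% of genes. A count of 0 allows up to 0.244 CPM in rat 29 and 0.209 CPM in rat 30, the level of 3 counts, counting error only.

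At 1 week Cd74 spread widely among rats. Near tissue held 172 CPM in rat 9, 134 in rat 22, 24.8 in rat 10 and 13.9 in rat 23. Rat 20 had 0 counts at both positions. Far levels were 6.76 CPM in rat 9, 8.76 in rat 22 and 52.2 in rat 23, with 0 counts in rat 10. The near value was thus the higher one in 3 of 5 rats and the lower one in rat 23. Of the 4 libraries of rat 23, the left near one gave all 159 near counts (9623 genes detected) and the left far one all 717 far counts (5089 genes), while the right near (4707 genes) and right far (10467 genes) libraries held 0. Without its 2 libraries of few detected genes, the near-far difference of rat 23 on the log2(CPM + 1) scale turned from -1.84 to 4.42. That value sets the left near library against the right far library, so it compares implants in opposite hemispheres. Within the left hemisphere far tissue was the higher one, at 105 CPM of the library total against 21.2 near. The near library of rat 20, its only one at that position, was also one of the 4 with few detected genes.

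At 6 weeks all 4 rats had Cd74 counts at both positions, and the direction differed between them. Near levels were 78.0 CPM in rat 17, 55.6 in rat 19 and 24.7 in rat 11, against 0.251 (4 counts), 23.3 and 11.0 CPM far. Rat 2 showed the opposite order, with 2 counts near, or 0.297 CPM (95% Poisson interval 0.0360 to 1.07), and 11.9 CPM far. The near and far groups overlapped at this time.

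Over the 12 rats the near-far difference of Cd74 was 2.28 ± 2.95 (SD, n = 12) on the log2(CPM + 1) scale, with near higher in 9 rats, lower in 2 and equal at 0 counts in 1. The same exact test gave p = 0.0254, and adjusted over all 14783 genes p = 0.293. A higher near level in at least 9 of 12 rats was found for 4.99% of genes. Leaving out the 4 libraries with few detected genes leaves no near sample of rat 20, and the difference over the remaining 11 rats was 3.09 (exact sign-flip p = 0.00781). That value takes rat 23 at 4.42, from its left near and right far libraries, although far was the higher one within its left hemisphere. With all libraries kept, the difference was 1.94 without rat 17 and 2.00 without rat 30 (exact sign-flip p = 0.0508 for each).

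**Figure D2:**
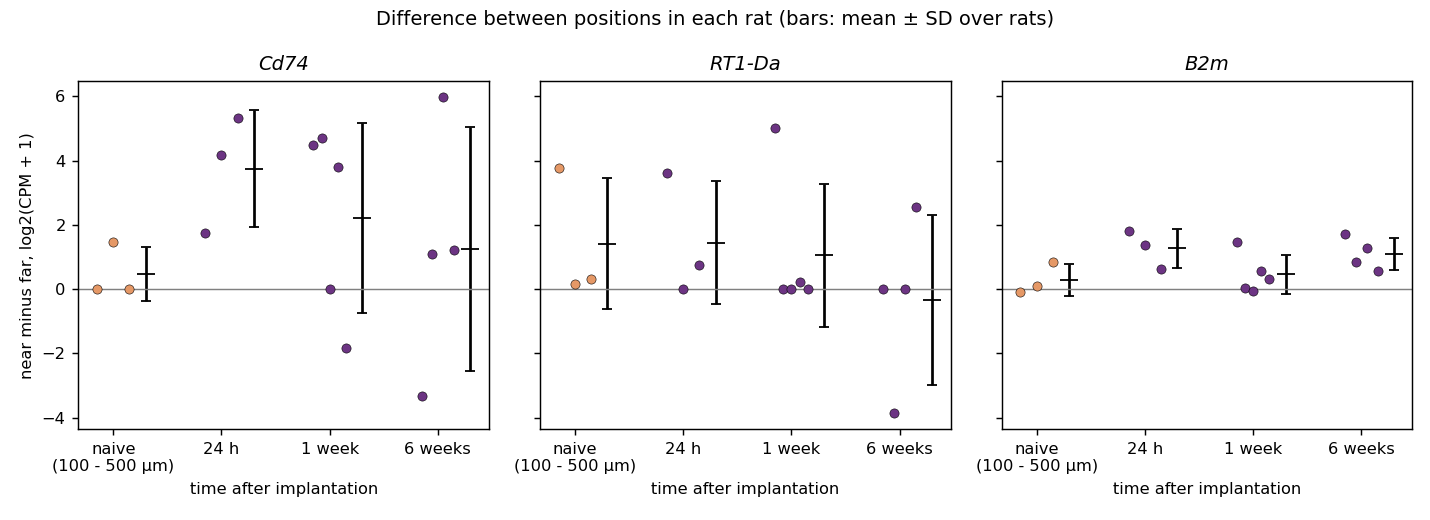
Near minus far difference of log2(CPM + 1) in each rat, by time, with the 100 µm minus 500 µm difference of naive rats at the left of each panel. Points are rats and black bars give the mean ± SD. B2m lay at or above 0 in nearly every implanted rat, and Cd74 ran from -3.31 to 5.98.

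In the fit across all genes no Cd74 contrast of near with far was called. Its log2 fold change was 7.92 ± 3.11 at 24 h (edgeR adjusted p = 0.908, DESeq2 adjusted p = 0.000498), a size that rests on far counts of 0 in 2 of 3 rats. DESeq2 called 3.67% of genes in that contrast. The Cd74 log2 fold change was 4.02 ± 2.22 at 1 week and 1.19 ± 2.14 at 6 weeks (edgeR adjusted p = 0.897 and 1). The average over the times was 4.38 ± 1.47 (edgeR adjusted p = 0.135). That average was called without the 4 libraries of few detected genes (5.18, edgeR adjusted p = 0.00195), and without any 1 of rats 2, 20 and 25 (4.85, 4.35 and 5.48, edgeR adjusted p = 0.0190, 0.0111 and 0.0449). The adjusted p ran from 7.35e-05 to 0.5405 over the alternatives, the lowest being that of DESeq2. Without the rat as a block the Cd74 log2 fold change was 3.24 at 24 h, 2.34 at 1 week and 2.44 for the average, and with the 4 libraries of few detected genes left out it was 6.33 at 1 week, none of them called by edgeR. The change of the Cd74 near-far difference from 24 h to 6 weeks was tested directly and was -6.73 ± 3.74 on the log2 scale (edgeR adjusted p = 1). It was -3.90 ± 3.60 from 24 h to 1 week and -2.83 ± 2.86 from 1 week to 6 weeks (edgeR adjusted p = 1 for each), so no trend over time was shown. Without the block these changes were -1.50, -0.90 and -0.60. In these contrasts 0.0208%, 0% and 0.0278% of 14399 genes were called. For 24 h to 1 week, where edgeR called 0, 258 genes had an unadjusted p under 0.05 and DESeq2 called 417.

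RT1-Da, the class II alpha chain, was the sparsest of the 3 genes in implanted tissue. Counts were present in 6 of 18 near libraries, 4 of 18 far libraries and 3 of 12 naive libraries. At 24 h near tissue held 11.2 CPM in rat 25, 20.1 in rat 30 and 0 counts in rat 29, and far tissue held 11.6 CPM in rat 30 only. At 1 week near tissue held 31.2 CPM in rat 9 and 11.2 in rat 22, and far tissue 9.42 CPM in rat 22, with 0 counts in all other samples of that time. At 6 weeks rat 19 had 26.4 CPM near and 3.71 far, rat 11 had 0 counts near and 13.6 CPM far, and rats 2 and 17 had 0 counts at both positions. Near was higher in 5 rats, lower in 1 and equal at 0 in the other 6. The near and far groups overlapped at each time, and 47.7% of genes were higher near in at least 5 of 12 rats. The mean difference was 0.69 ± 2.22 (SD, n = 12) on the log2(CPM + 1) scale (exact sign-flip p = 0.344, and 0.739 adjusted over all genes). The fitted log2 fold changes of near over far were 2.86 ± 4.34 at 24 h, 1.67 ± 2.84 at 1 week and -0.63 ± 2.91 at 6 weeks, none called (edgeR adjusted p = 1, 0.966 and 1). They are too wide to show an order of the times.

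RT1-Da counts mostly came from libraries that also held Cd74, but Cd74 was more often present without RT1-Da. Of the 10 implanted libraries with RT1-Da counts, 9 also held Cd74 counts, and all 10 held B2m counts. Cd74 was present in 12 of the 26 implanted libraries without RT1-Da. Conversely, 21 implanted libraries held Cd74, and RT1-Da was present in 9 of them and B2m in all 21. The 2 implanted libraries without any B2m count held neither class II gene. These were the right near library of rat 29 at 24 h, where 3062 genes were detected, and the left near library of rat 17 at 6 weeks, where 9494 were. The latter library was not among the 4 with few detected genes.

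Libraries of the left and right hemisphere of 1 rat could differ completely. Among the 12 pairs of hemispheres in implanted rats, Cd74 was at 0 counts in only 1 hemisphere in 8 pairs and in both in 2. In near tissue of rat 17 at 6 weeks the left library held 0 counts of Cd74 and of B2m, while the right held 1164 and 1422. In near tissue of rat 30 at 24 h the left library held 0 Cd74 counts and the right 551, although the left detected 11251 genes and the right 8918. RT1-Da was at 0 in only 1 hemisphere in 4 of 12 pairs and in both in 7. B2m was at 0 in only 1 hemisphere in 2 of 12 pairs. The spread between rats given above therefore includes differences of this size between libraries of 1 animal.

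**Figure D3:**
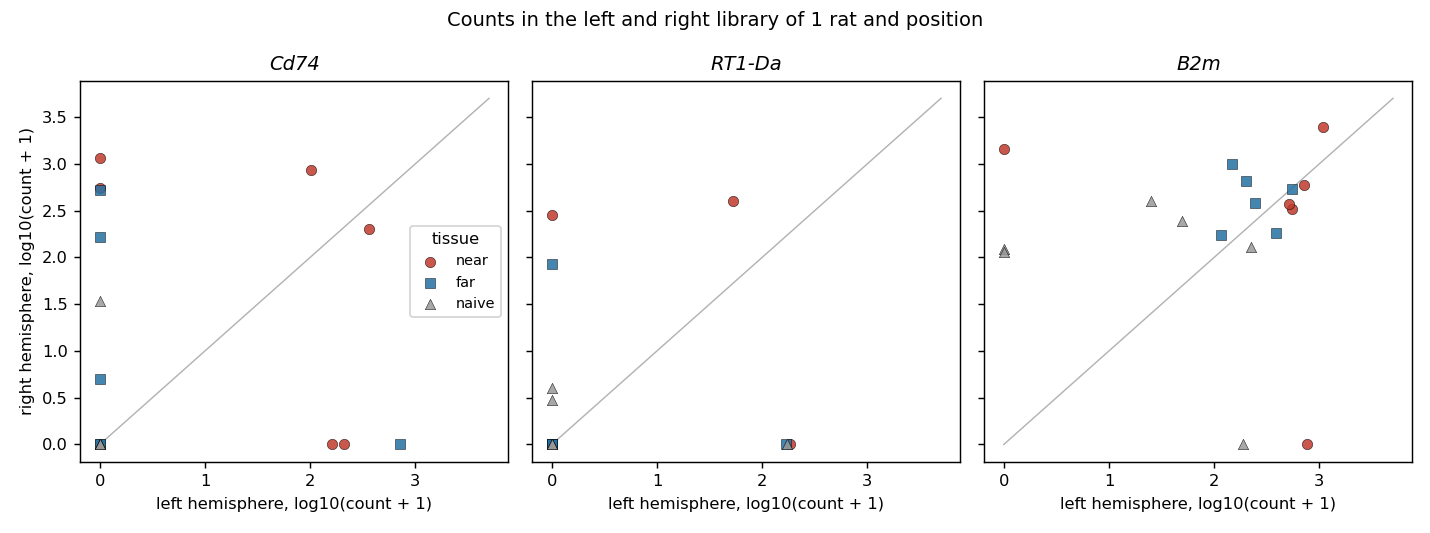
Counts of each gene in the left and right library of the same rat and position, as log10(count + 1), for the 12 pairs of implanted rats and the 6 pairs of naive rats. The grey line marks equal counts. Cd74 had 9 pairs on an axis away from the origin, 8 of them implanted, while B2m had 5 pairs on an axis, 2 of them implanted.

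The near-far differences of the 3 genes were set side by side on the log2(CPM + 1) scale, on which they depend on the pseudocount where counts are 0 or low. The difference of Cd74 exceeded that of B2m by 1.40 ± 3.02 (SD, n = 12), with the larger one for Cd74 in 9 of 12 rats (p = 0.129, exact sign-flip test). Rat 20 is among the 9 with 0 Cd74 counts at both positions, against a B2m difference of -0.05. Without rat 2 this was 1.99 (exact sign-flip p = 0.0176), and 2.15 when the 4 libraries with few detected genes were dropped (exact sign-flip p = 0.0488). With a pseudocount of 0.1 CPM in place of 1 it was 2.26 (exact sign-flip p = 0.0981). These p-values are unadjusted. RT1-Da had 0 counts at both positions in 6 of 12 rats, where its difference is 0 by absence. Its values of -0.19 ± 2.10 against B2m and of 1.59 ± 3.34 for Cd74 against it (SD, n = 12) therefore do not compare the genes.

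Naive tissue gave the level of the genes without an implant. The naive libraries were deposited in a table of their own and carry another series of label numbers, so batch and implant cannot be told apart in what follows. B2m was counted in 9 of 12 naive libraries. It was 8.42 CPM in rat n2, 22.6 in rat n3 and 29.4 in rat n5 at 100 µm, and 9.09, 21.1 and 16.0 CPM at 500 µm. All 12 near values, from 37.0 to 219 CPM, lay above all 3 naive values at 100 µm. This held for 10 of 14783 genes (0.0676%), B2m being one of them. Taken time by time, the near rats lay above the naive rats for 5.09% of genes at 24 h, 0.791% at 1 week and 2.33% at 6 weeks, B2m included at each time and Cd74 at 24 h. All 12 far values, from 23.4 to 101 CPM, lay above the naive values at 500 µm, as they did for 0.379% of genes. These rules were set after the values were seen.

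Near over naive, the log2 fold change of B2m was 2.54 ± 0.78 at 24 h, 2.17 ± 0.72 at 1 week and 2.55 ± 0.75 at 6 weeks. None was called (edgeR adjusted p = 0.441, 0.374 and 0.815), where 0.0578%, 0.123% and 0.0434% of 13834 genes were. The DESeq2 Wald test called all 3 (DESeq2 adjusted p = 0.00464, 0.00788 and 0.00485), beside 2.89%, 2.23% and 1.32% of all genes. Far over naive, the log2 fold change was 1.40 ± 0.70, 2.02 ± 0.67 and 1.68 ± 0.68 at these times (edgeR adjusted p = 0.642, 0.363 and 0.608), where 0.00748%, 0.127% and 0.0598% of 13369 genes were called. DESeq2 called the far contrasts at 1 week and 6 weeks (adjusted p = 0.000515 and 0.0151), where it called 5.81% and 4.93% of genes. The median of all genes was -0.17, -0.30 and -0.17 in the near contrasts. The 3 contrasts at each position share the same naive rats.

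Cd74 was listed at 0 counts in 11 of 12 naive libraries. The exception was the right 100 µm library of rat n3, with 33 counts and 16023 detected genes, the most of any library. That rat stood at 1.74 CPM over both hemispheres. The fitted log2 fold change of Cd74 near over naive was 5.66 ± 1.93 at 24 h, 6.85 ± 2.00 at 1 week and 6.05 ± 1.94 at 6 weeks, none called by edgeR (adjusted p = 0.699, 0.259 and 1) and all 3 by DESeq2 (adjusted p = 0.0153, 0.000151 and 0.00594). Without rat n3 all 3 were called (edgeR adjusted p = 0.0306, 0.00808 and 0.0234), and the naive group then held no count. At 1 week it was also called without rat 25 and without the filter on low counts (edgeR adjusted p = 0.0339 and 0.0354). By counting error alone, a group total of 0 in naive 500 µm tissue allows 3 counts. Against these, mean far Cd74 was 40.5-fold at 24 h, 176-fold at 1 week and 151-fold at 6 weeks. They are bounds for counting error only, since 2 libraries of 1 rat and position could hold 0 and 1164 Cd74 counts. These bounds rest on 1, 3 and 4 rats with far counts. At 24 h all 163 far counts came from the right library of rat 25. At 1 week 717 of the 830 counts came from the left far library of rat 23, one of the 4 with few detected genes. Without it the mean fell to 3.10 CPM and the bound to 40.3-fold, a check chosen after seeing the data. By edgeR none of these Cd74 contrasts was called (adjusted p = 0.642, 0.471 and 0.594). DESeq2 called them at all 3 times, for Cd74 and for RT1-Da, and at 24 h it called 5.09% of all genes.

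RT1-Da did not follow Cd74 in naive tissue at 100 µm. The left library of rat n2 held 172 counts, which put the rat at 12.7 CPM, within the range of implanted samples. Rats n3 and n5 had 2 and 3 counts there, and all 6 libraries at 500 µm had 0. Near over naive, its log2 fold changes were 1.26 ± 3.03, 0.94 ± 2.76 and 0.58 ± 2.83 at the 3 times (edgeR adjusted p = 1 for each). Against 3 counts over the naive 500 µm group, mean far RT1-Da was 50.4-fold, 24.5-fold and 56.2-fold at 24 h, 1 week and 6 weeks. These values cover counting error only and came from 1, 1 and 2 rats with counts. They do not bound a difference from naive tissue. Its mean at 100 µm was 4.36 CPM, above the far means of 3.88, 1.88 and 4.33 CPM. The far contrasts with naive 500 µm tissue were not called (edgeR adjusted p = 0.642, 0.528 and 0.608).

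**Figure D4:**
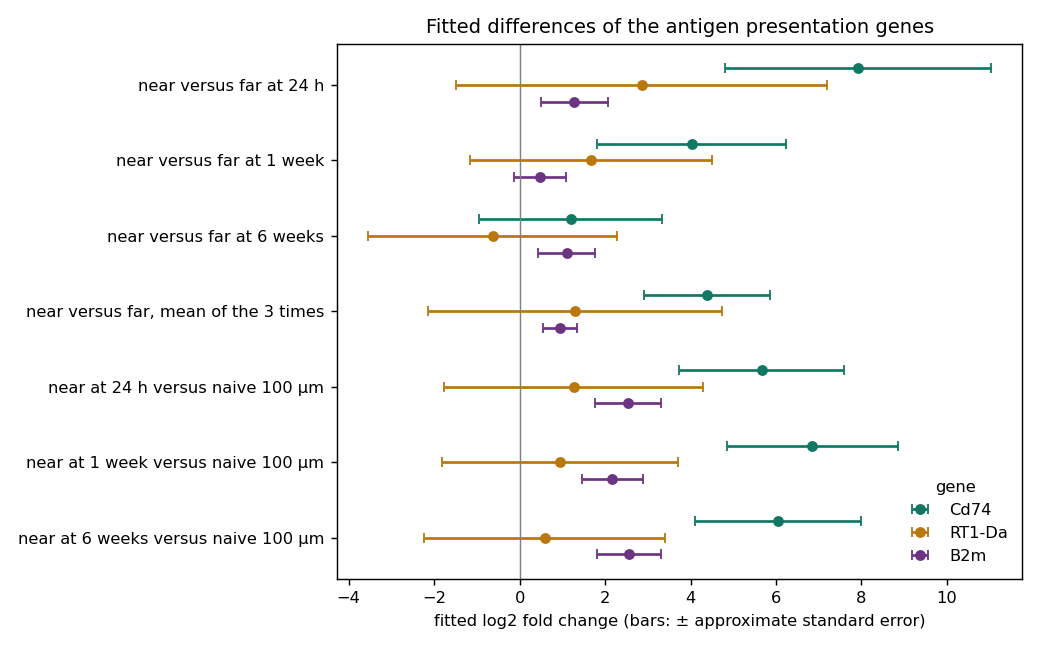
Fitted log2 fold changes of the 3 genes from edgeR, for near against far tissue and near against naive tissue, with the comparison on the vertical axis. Bars are ± the approximate standard error. Intervals were narrowest for B2m and widest for RT1-Da, and none of the 21 values was called.

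Within naive rats the direction of B2m between positions was not the same in each. The 100 µm minus 500 µm difference was -0.10, 0.09 and 0.84 on the log2(CPM + 1) scale in rats n2, n3 and n5, and the fitted log2 fold change was 0.25 ± 1.73 (edgeR adjusted p = 1.00). No gene of 11839 (0%) was called there by edgeR, with 600 at an unadjusted p under 0.05, while DESeq2 called 1357. The difference in rat n5 was close to the mean of 0.88 in implanted rats, and the fitted value is too wide to show whether the positions differ. Cd74 and RT1-Da did not pass the filter on low counts in the naive table. Without that filter edgeR gave each an adjusted p of 0.945.

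Between times, none of the 3 genes was called in near or far tissue by edgeR, where 0.0469% (1 week against 24 h), 0.00781% (6 weeks against 1 week) and 0.0234% (6 weeks against 24 h) of 12799 genes were called near and 0% of 12995 far. In far tissue 546, 661 and 533 genes had an unadjusted p under 0.05, and DESeq2 called 196, 129 and 219. Mean B2m near the implant was 115 CPM ± 90.6 (SD, n = 3) at 24 h, 89.7 ± 33.6 (n = 5) at 1 week and 117 ± 55.7 (n = 4) at 6 weeks, so the times differed by less than the spread between rats. In far tissue it was 41.8 ± 19.5, 64.2 ± 26.5 and 50.7 ± 8.73 CPM. Mean Cd74 near was 68.9 ± 78.3 CPM at 1 week and 39.6 ± 34.2 at 6 weeks, against 17.0 to 39.0 CPM in the 3 rats at 24 h. In far tissue the Cd74 means were 3.12 ± 5.40, 13.5 ± 21.96 and 11.6 ± 9.44 CPM. The fitted difference of far Cd74 between 1 week and 24 h was 2.13 ± 2.31 on the log2 scale (edgeR adjusted p = 1) and -0.03 once the 4 libraries with few detected genes were dropped. RT1-Da averaged 10.4 ± 10.1, 8.47 ± 13.6 and 6.61 ± 13.2 CPM near, and 3.88 ± 6.72, 1.88 ± 4.21 and 4.33 ± 6.42 CPM far. In order of the mean level, B2m and Cd74 were each lowest in naive tissue, then far, then near, and the 3 times within a position could not be ordered beyond their spread. RT1-Da showed no such order, since its naive mean at 100 µm was 4.36 ± 7.23 CPM (n = 3).

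Patterns across the 24 implanted rat-by-position samples were compared by Spearman correlation, as a description over samples that share rats. B2m and Cd74 had a rho of 0.578, Cd74 and RT1-Da 0.425, and RT1-Da and B2m 0.198. Among genes with a mean log2 level of at least 5, the gene most like B2m was ENSRNOG00000016630 (rho 0.830) and the gene most like Cd74 was ENSRNOG00000018320 (rho 0.825). Names for these IDs were not available. The closest gene to RT1-Da reached a rho of 0.598, over samples of which most held 0 RT1-Da counts. Each is the highest of 3212 genes compared for B2m and 3213 for Cd74 and RT1-Da. The median rho over these genes was -0.10 for B2m, -0.04 for Cd74 and 0.03 for RT1-Da.

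Over 20 comparisons edgeR made 58 tests of the 3 genes and called 0, with 14 at an unadjusted p under 0.05. Over all genes in the same comparisons 5.02% of tests had such a p. DESeq2 called 17 of the same 58, and 3.68% of the tests over all genes. In both counts most were contrasts with naive tissue, where batch and implant cannot be told apart. Those contrasts share the same naive rats, and some of the DESeq2 calls were against naive groups at 0 counts. The tests overlap and are not independent, so these shares are a description and do not show an excess in the 3 genes.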

How the data were processed

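Laser-captured tissue was sequenced with a stranded kit, per the labels' protocols. Both deposited tables hold raw counts per gene as whole numbers, used unchanged. Build Rnor_6.0, RSEM 1.3.1 and STAR 2.6.1b are among the entries of the submitters' processing notes, which assign them no step. Whether RSEM estimates were rounded is not given there. Ensembl IDs for the 3 genes came with the choice of genes. The members, lists and rules were chosen with earlier results of these data known.

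Counts were summed per rat and position. Each comparison was fitted by robust quasi-likelihood in edgeR 4.0.16 (R 4.3.3) after filterByExpr and TMM scaling, with Benjamini-Hochberg adjustment over all genes of a comparison. Near and far tissue of the 3 times shared a fit with the rat as a block, since near and far come from the same animals. Their deviations from group means correlated between 0.0115 and 0.102 within a rat. Comparisons between times and with naive tissue had no block, and the latter used the 15936 genes in both tables. Sign-flip tests used a pseudocount of 1 CPM. Each ± on a fitted fold change is the fold change over the square root of F, an approximation. The scripts were tested on simulated data. Genes named were the 3 members always and, by likeness, the first ID for B2m and Cd74. Counting intervals and floors of 3 counts cover counting error only. Alternatives were DESeq2 1.42.0, its size factors, no filter, no block, leaving out libraries under 6000 genes, each rat left out, another pseudocount and library totals alone.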

Additional observations from a re-analysis of the deposited data

Results flagged for a closer look

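In 4 of the 12 groups of 4 or 5 rats examined, the level of 1 rat stood far from the others, where chance flags about 1 group in 20 of roughly normal values. That rate does not apply to the 2 RT1-Da groups, in which any single rat with counts stands apart because all others are at 0. Levels were examined as CPM and not on the log2 scale, and the rate is not known for skewed values such as these. The number of flags is therefore not compared with it. Cd74 in far tissue of rat 23 at 1 week was 52.2 CPM, against at most 8.76 in the other 4 rats, and came from a library with 5089 detected genes. RT1-Da in far tissue of rat 22 at 1 week was 9.42 CPM where the other 4 rats had 0 counts. RT1-Da in near tissue of rat 19 at 6 weeks was 26.4 CPM where the other 3 rats had 0 counts. B2m in near tissue of rat 2 at 6 weeks was 199 CPM against at most 96.1 in the others, in the same library that held 2 counts of Cd74.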

How the results depend on the processing

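Of the values recomputed under the alternatives, 1019 kept their direction and side of the threshold, 28 passed it newly, 2 no longer passed it, 38 changed sign and 1 lower bound moved, that of far Cd74 at 1 week (40.3-fold when libraries with few detected genes are left out). Keeping the side mostly meant not being called either time, whatever the size. Cd74 near over far at 24 h counted as kept at 3.24 without the block, against 7.92 with it. Many values left out a rat of another time or group. The 1019 are therefore no measure of how steady the values are. The B2m near-far difference over rats kept its direction and an exact sign-flip p under 0.05 in all 16 alternatives (0.73 to 1.06). The cause of the changes was not tested. The DESeq2 Wald test gave log2 fold changes past the threshold for near over far Cd74 at 24 h (8.83), averaged Cd74 (4.65) and averaged B2m (1.13), for Cd74 near over naive (5.93, 7.18 and 6.27 at 24 h, 1 week and 6 weeks), for B2m near over naive (2.80, 2.46 and 2.74) and for B2m far over naive at 1 week and 6 weeks (2.10 and 1.75). Against naive groups at 0 counts it gave 22.13, 24.38 and 24.13 for Cd74 and 22.51, 21.62 and 22.72 for RT1-Da, which are no bounds. It turned RT1-Da near over far at 6 weeks to 0.0082.

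Without the replicate block, RT1-Da near over far at 6 weeks was 0.57 and its change from 24 h to 1 week was 0.75, both of opposite sign to the fit with the block. With the block that change was -1.18 with an approximate standard error of 671, so its sign was not determined. Without the block Cd74 near over far was 3.24 at 24 h, 2.34 at 1 week and 2.44 averaged, its change from 24 h to 6 weeks was -1.50, and averaged B2m was 1.05. No other direction and no call of the 3 genes changed with the block. Without a filter on low counts, Cd74 near over naive at 1 week was called (6.91) and B2m near at 6 weeks against 24 h was 0.055. Without the 4 libraries of few detected genes, averaged Cd74 was 5.18, far Cd74 was -0.026 for 1 week against 24 h and 1.90 for 6 weeks against 1 week, and Cd74 minus B2m was 2.15. A pseudocount of 0.1 CPM gave 0.098 for RT1-Da minus B2m, which in 6 rats is only minus the B2m difference.

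Leaving out each rat in turn, near over far ran from -0.27 to 2.67 for Cd74 at 6 weeks, -3.91 to 1.60 for RT1-Da at 6 weeks and 3.43 to 5.48 for averaged Cd74. The change of the difference ran from -5.42 to 1.07 for RT1-Da (1 week against 24 h) and -0.52 to 0.10 for B2m (6 weeks against 24 h). Near tissue at 1 week against 24 h ran from -1.85 to 0.52 for RT1-Da and -0.69 to 0.52 for B2m. At 6 weeks against 1 week it ran from -9.36 to 1.13 for RT1-Da and -0.034 to 0.53 for B2m. At 6 weeks against 24 h it ran from -0.21 to 0.77 for Cd74, -9.68 to 0.13 for RT1-Da and -0.42 to 0.93 for B2m. Far tissue ran from -8.65 to 7.52 for RT1-Da (1 week against 24 h), -0.77 to 1.59 for Cd74 and -0.62 to 8.80 for RT1-Da (6 weeks against 1 week), and -1.67 to 8.72 for RT1-Da (6 weeks against 24 h). Near over naive ran from 5.17 to 11.36, 6.29 to 12.54 and 5.49 to 11.72 for Cd74 at the 3 times, and from -0.55 to 5.51 and -8.57 to 5.13 for RT1-Da at 1 week and 6 weeks. B2m between naive positions ran from -0.050 to 0.38. Over rats, the near-far difference of Cd74 ran from 1.94 to 2.79, Cd74 minus B2m from 1.10 to 1.99 and RT1-Da minus B2m from -0.53 to 0.22. No value was given where leaving out rat 22, 25 or 30 left both groups of a far contrast with naive tissue at 0 counts. RT1-Da had 0 counts in 26 of 36 implanted libraries, so its values rest on few samples.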
